A study of Mus musculus with 4 samples.

Results

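The oxidative phosphorylation genes described here are the subunits of respiratory complexes I to IV and of ATP synthase (complex V), with a few of their assembly factors. Members were chosen by symbol: rows starting with Ndufa, Ndufb, Ndufs, Ndufv, Uqcr, Cox4 to Cox8, Atp5, mt-Nd, mt-Co, mt-Cytb or mt-Atp, plus Sdha, Sdhb, Sdhc and Sdhd, leaving out pseudogene symbols with -ps. This gave 100 of 31781 genes, of which 90 are nuclear and 10 are encoded by the mitochondrial genome. mt-Co2, mt-Atp8 and mt-Nd4l were not analysed here.

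Cells came from MMTV-PyMT mice, in which a mammary tumor virus promoter drives the polyoma middle T oncogene in mammary epithelium. All 4 groups carry it. The groups were PKA activated tumors, wild type (WT) tumors, PKA activated hyperplastic glands and WT hyperplastic glands, with 1 droplet 3′ library each (PKA is protein kinase A, the cAMP-dependent kinase, and the labels do not say how it was activated). The sample labels give 16 to 20 weeks for tumors, where the series design gives 22 weeks, and 8 to 9 weeks for glands. Cells were sorted by flow cytometry through a gate that the labels do not name, and glands but not tumors were also treated with trypsin and dispase. How many animals each library pooled is not stated.

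In the respiratory chain, complexes I and II pass electrons from NADH and succinate to ubiquinone, complex III passes them to cytochrome c, and complex IV passes them to oxygen. Complexes I, III and IV pump protons, and complex V uses the gradient to make ATP. All complexes except II join nuclear-encoded subunits with a few encoded in mitochondrial DNA, so that both genomes must be expressed together.

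The authors assigned 2638 PKA tumor cells, 5181 WT tumor cells, 3818 PKA hyperplasia cells and 3808 WT hyperplasia cells to classes. These held 16758734, 24499374, 10648097 and 10797950 UMIs (unique molecular identifiers, each 1 counted transcript) in that order. The median cell held 5890.5, 4391, 2557 and 2637.5 UMIs. From 16 to 24 barcodes were shared by each pair of libraries. Basal and Mature Luminal markers followed their classes, at summed levels of 10000 to 13976 CPM (UMIs of a gene scaled to a common library total of 1e6) in Basal cells and 3688 to 5838 CPM in Mature Luminal cells. The 4 EMT-like markers did not follow theirs. Sox4, which makes up most of their sum, had 340 CPM in PKA and 244 CPM in WT cells annotated EMT-like, against 789 and 685 CPM in Luminal Progenitor 1 cells of the same tumors. Vim had 25.8 and 10.6 CPM, against 29.6 and 21.7 CPM, and Trim29 and Cldn6 had 0 UMIs in cells annotated EMT-like. Luminal Progenitor markers summed to 7457 CPM in PKA and 2538 CPM in WT cells annotated EMT-like, against 5033 and 2116 CPM in Luminal Progenitor 1 cells. Summed over 6 genes, fibroblast markers were at 223 CPM in WT tumor, 52.5 CPM in PKA hyperplasia, 87.0 CPM in WT hyperplasia and less in PKA tumor, all 6 being detected in each. Dcn alone gave 201 CPM of the sum in WT tumor. Without it the other 5 summed to 4.83 CPM in PKA tumor, 21.2 CPM in WT tumor, 23.2 CPM in PKA hyperplasia and 36.6 CPM in WT hyperplasia. Macrophage markers were at 6.29 to 21.4 CPM, with Adgre1 at 0 in PKA hyperplasia, and T cell, B cell and endothelial markers reached at most 10.2 CPM. Adipocyte markers were at 0.179 to 10.2 CPM, with Adipoq and Cidec at 0 in every library, and red blood cell markers at 4.86 to 16.1 CPM. What part other cell types had in the results was not tested.

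Sequences bear on what these counts can show, first for the mitochondrial genes. A nuclear copy of part of the mitochondrial genome on chromosome 1 is annotated as a row of pseudogenes, and a read from such a stretch matches both. The last 120 bases of mt-Co3 (chromosome M, 8607 to 9390), a complex IV subunit, are shown with the corresponding bases of the pseudogene Gm28437 (chromosome 1, 24613189 to 24613971, minus strand) and with the last 120 bases of mt-Cytb (chromosome M, 14145 to 15288), the complex III subunit, of which no run of 50 bases was found in another annotated transcript. Sequences are from the GENCODE M21 transcripts of GRCm38, and the capital marks the last base of mt-Co3, which lies past the end of the pseudogene.
mt-Co3: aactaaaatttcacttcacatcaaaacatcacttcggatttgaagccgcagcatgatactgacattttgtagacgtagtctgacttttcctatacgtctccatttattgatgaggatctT
Gm28437: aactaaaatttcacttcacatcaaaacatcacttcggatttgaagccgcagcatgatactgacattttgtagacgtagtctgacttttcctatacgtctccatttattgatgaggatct
mt-Cytb: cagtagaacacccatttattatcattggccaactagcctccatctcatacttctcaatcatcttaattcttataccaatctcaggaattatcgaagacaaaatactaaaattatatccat

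The 783 bases that mt-Co3 shares with Gm28437 held 0 mismatches. The same was true of the 678 bases shared by mt-Atp6, an ATP synthase subunit, and Gm10925. mt-Nd3, a complex I subunit, differed from Gm28438 at 1 of 345 bases. In the deposited counts, mt-Co3 had 3 UMIs in PKA tumor, 6 in WT tumor, 2 in PKA hyperplasia and 0 in WT hyperplasia. mt-Atp6 had 1 UMI in PKA tumor and 0 in the other libraries, and mt-Nd3 had 38, 23, 6 and 28 UMIs in PKA tumor, WT tumor, PKA hyperplasia and WT hyperplasia. By contrast mt-Nd1, with no shared run, had 101717, 154611, 93268 and 105606 UMIs in those libraries. The pseudogene rows held few UMIs as well, at most 13 for Gm28437 or Gm10925 and 0 for Gm28438. mt-Co1 is an exception to this split. Every run of 50 bases in its 3′ end also occurs in another transcript, the largest number of them in Gm29216, yet it held 5440, 4578, 3821 and 3542 UMIs. The sources used here do not say how reads matching more than 1 place were counted, so the mitochondrial sums below rest almost wholly on the other 7 genes and say nothing of mt-Co3, mt-Atp6 or mt-Nd3.

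**Figure D1:**
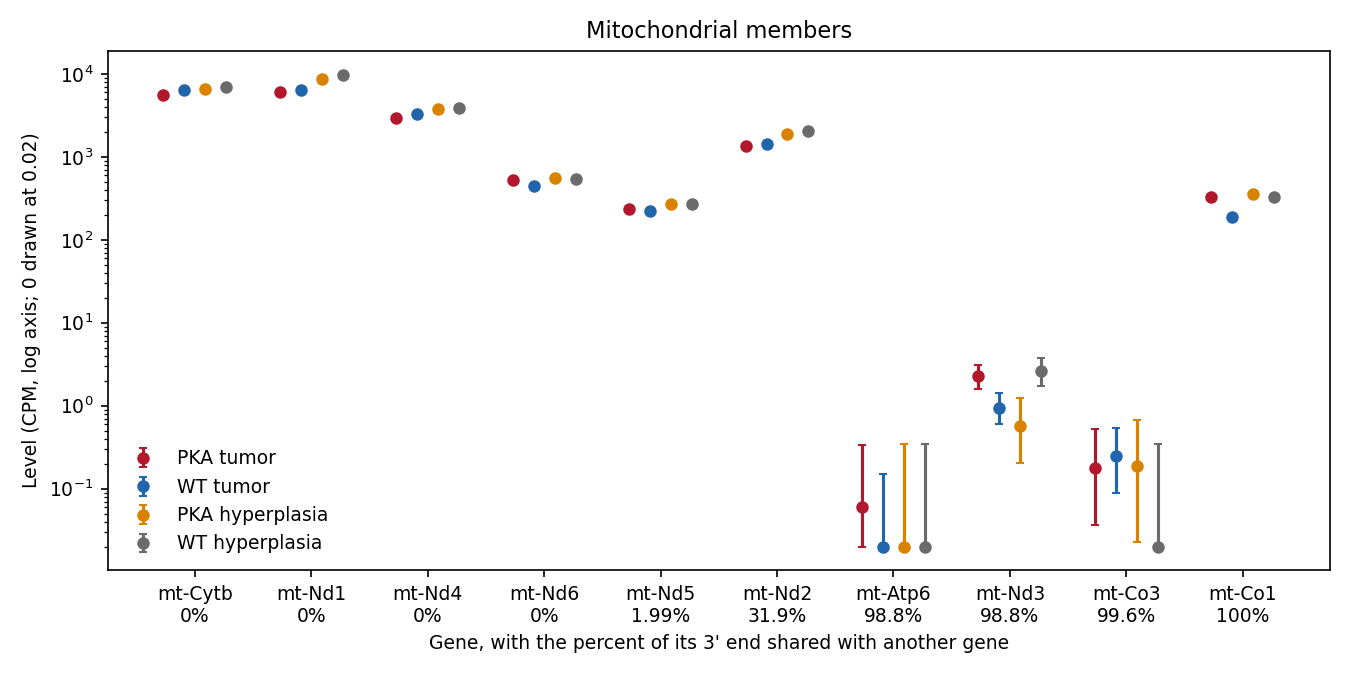
Level of each mitochondrial member in CPM on a log axis, with 95% exact Poisson intervals, in the 4 libraries, ordered by the percent of 50-base runs in the gene's last 300 bases that also occur in another gene. mt-Atp6, mt-Nd3 and mt-Co3 reach at most 2.59 CPM (mt-Nd3 in WT hyperplasia), and the other 7 genes are at 187 CPM or more.

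For the nuclear genes, RefSeq promoter windows of 300 bases (250 before and 50 after the start, GRCm38.p6) were found for 72 of the 90 nuclear members. The motif of nuclear respiratory factor 1 (NRF1), a factor known for driving nuclear genes of mitochondria, is in capitals in the sequences below. It was present in the windows of 7 members (9.72%), of 2.19% of 10113 other genes with at least 50 UMIs, and in 0.971% of all windows. The YY1 motif, named after another factor that binds promoters, was found for 5 members (6.94%) against 1.77% of other genes. The GABP letters CCGGAAGT were found for 5 members (6.94%) against 8.91% of other genes, TATAAA for 7 (9.72%) against 8.89%, and the TCAAGGTCA letters of estrogen-related receptors for 2 members (2.78%) against 0.307%. Both strands were searched, and a match is not evidence of binding. To show the NRF1 letters, 80 bases of the window are given for 3 members: Atp5k (chr5:108434405-108434484, minus strand), Cox6a1 (chr5:115349076-115349155, minus strand) and Ndufa11 (chr17:56717667-56717746, plus strand).
Atp5k: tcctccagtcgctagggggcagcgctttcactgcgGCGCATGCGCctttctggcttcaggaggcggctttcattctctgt
Cox6a1: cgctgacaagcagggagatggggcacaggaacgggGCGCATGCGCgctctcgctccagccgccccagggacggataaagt
Ndufa11: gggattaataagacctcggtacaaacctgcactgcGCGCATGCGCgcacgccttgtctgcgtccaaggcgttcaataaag

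Across libraries, the 10 mitochondrial members together took 17014 CPM in PKA tumor, 18266 CPM in WT tumor, 22101 CPM in PKA hyperplasia and 23804 CPM in WT hyperplasia. The 90 nuclear members took 25982 CPM in PKA tumor, 23431 CPM in WT tumor, 31302 CPM in PKA hyperplasia and 33144 CPM in WT hyperplasia. Both sums were lower in tumors than in glands for either genotype. With 1 library per group there is no replicate spread, so no difference between libraries was tested. Intervals are exact 95% intervals that cover counting error only.

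Single mitochondrial genes are given next. mt-Nd1 had 6069 CPM in PKA tumor, 6311 CPM in WT tumor, 8759 CPM in PKA hyperplasia and 9780 CPM in WT hyperplasia. mt-Cytb had 5542, 6341, 6502 and 6951 CPM in that order, and mt-Nd4, another core complex I subunit, had 2971, 3311, 3759 and 3901 CPM. Summed over classes, all 3 were lower in the PKA library at either stage, but not in each class. In Luminal Progenitor 2 cells of glands their log2 ratios of PKA over WT were 0.01, 0.04 and 0.07. mt-Nd1 had 0.01 in Basal and mt-Nd4 0.00 in Luminal Progenitor 1 cells of glands. mt-Cytb had 0.02 in tumor cells annotated EMT-like. The remaining class ratios of these genes were below 0. PKA hyperplasia held 454 Luminal Progenitor 2 cells and WT hyperplasia 770. The other complex I genes were mt-Nd2 with 1349, 1445, 1887 and 2023 CPM, mt-Nd5 with 236, 224, 273 and 273 CPM, and mt-Nd6, encoded on the opposite strand, with 519, 447, 562 and 546 CPM. mt-Co1 stood apart, with 325 CPM in PKA tumor and 187 CPM in the WT tumor, a log2 ratio of 0.80 (0.74 to 0.85). In glands it had 359 CPM in PKA hyperplasia and 328 CPM in WT hyperplasia. Its whole 3′ end is shared with other transcripts, so its count is uncertain.

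The clearest structure in the mitochondrial members was between cell classes. In PKA hyperplasia, Luminal Progenitor 2 cells held 43919 CPM (43562 to 44277), Mature Luminal cells 36826 CPM (36395 to 37260) and Basal cells 26725 CPM (26280 to 27176), against 16830 CPM (16741 to 16920) in Luminal Progenitor 1 cells. In WT hyperplasia the same classes held 42721 CPM, 39192 CPM and 26846 CPM, against 17697 CPM in Luminal Progenitor 1 cells. The order of classes was thus the same in both glands. Luminal Progenitor 2 cells were 2.61-fold above Luminal Progenitor 1 cells in PKA hyperplasia and 2.41-fold in WT hyperplasia, Mature Luminal cells 2.19-fold and 2.21-fold, and Basal cells 1.59-fold and 1.52-fold. The 2 progenitor classes had close median depths, 2538 against 2588 UMIs per cell in PKA hyperplasia.

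The higher mitochondrial level of Luminal Progenitor 2 cells was carried by each counted gene. mt-Nd1, a core complex I subunit, had 16987 CPM in Luminal Progenitor 2 and 6973 CPM in Luminal Progenitor 1 cells of PKA hyperplasia. mt-Cytb had 13153 CPM in Luminal Progenitor 2 and 4694 CPM in Luminal Progenitor 1 cells there, and mt-Co1, the catalytic subunit of complex IV, had 583 and 307 CPM. Cells above 10% mitochondrial UMIs made up 11.9% of Luminal Progenitor 2 cells and 0.243% of Luminal Progenitor 1 cells in PKA hyperplasia, and 12.1% and 0.220% in WT hyperplasia. Among cells of at most 5%, Luminal Progenitor 2 cells held 29622 CPM in PKA and 29655 CPM in WT hyperplasia, against 15970 and 16887 CPM in Luminal Progenitor 1 cells, or 1.85-fold and 1.76-fold. That limit acts on the quantity compared and is given as a description. A high mitochondrial share can also mark damaged cells, and the part of cell quality in these values was not tested further.

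In tumors, cells annotated EMT-like had the highest mitochondrial level of the 4 classes. They held 26188 CPM (25884 to 26494) in PKA tumor and 27148 CPM (26942 to 27355) in WT tumor, against 16453 CPM and 18126 CPM in Luminal Progenitor 1 cells, and PKA tumor cells annotated EMT-like were thus 1.59-fold above the progenitors. Mature Luminal cells were close to the progenitors, at 17775 CPM in PKA tumor and 18242 CPM in the WT tumor. Lumino-Basal cells were lowest, at 9009 CPM in PKA tumor, from 66 cells, and 15250 CPM in WT tumor, from 1198 cells. Cells annotated EMT-like were also the shallowest class of both tumors. Their medians were 4135 UMIs in PKA and 2860 in WT tumor, against 5970 and 4143 in Luminal Progenitor 1 cells. Cells above 10% mitochondrial UMIs made up 0% and 1.43% of them, against 1.44% and 0.384% of those progenitors. The part of depth and cell quality in these levels was not tested.

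Between stages, the mitochondrial level of Luminal Progenitor 1 cells was nearly the same, with log2 ratios of tumor over hyperplasia of -0.03 in PKA cells and 0.03 in WT cells. Mature Luminal cells differed, at 17775 CPM in PKA tumor against 36826 CPM in PKA hyperplasia and 18242 CPM in WT tumor compared with 39192 CPM in WT hyperplasia. These are log2 ratios of -1.05 and -1.10. Cells above 10% mitochondrial UMIs moved with this, making up 1.13% of Mature Luminal cells in PKA tumor and 10.8% in PKA hyperplasia, and 0.344% in WT tumor and 10.3% in WT hyperplasia. Among cells of at most 5%, a limit on the measured quantity itself, the ratios were -0.64 and -0.69. The 2 stages also differ in age and in dissociation, which cannot be told apart from stage.

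**Figure D2:**
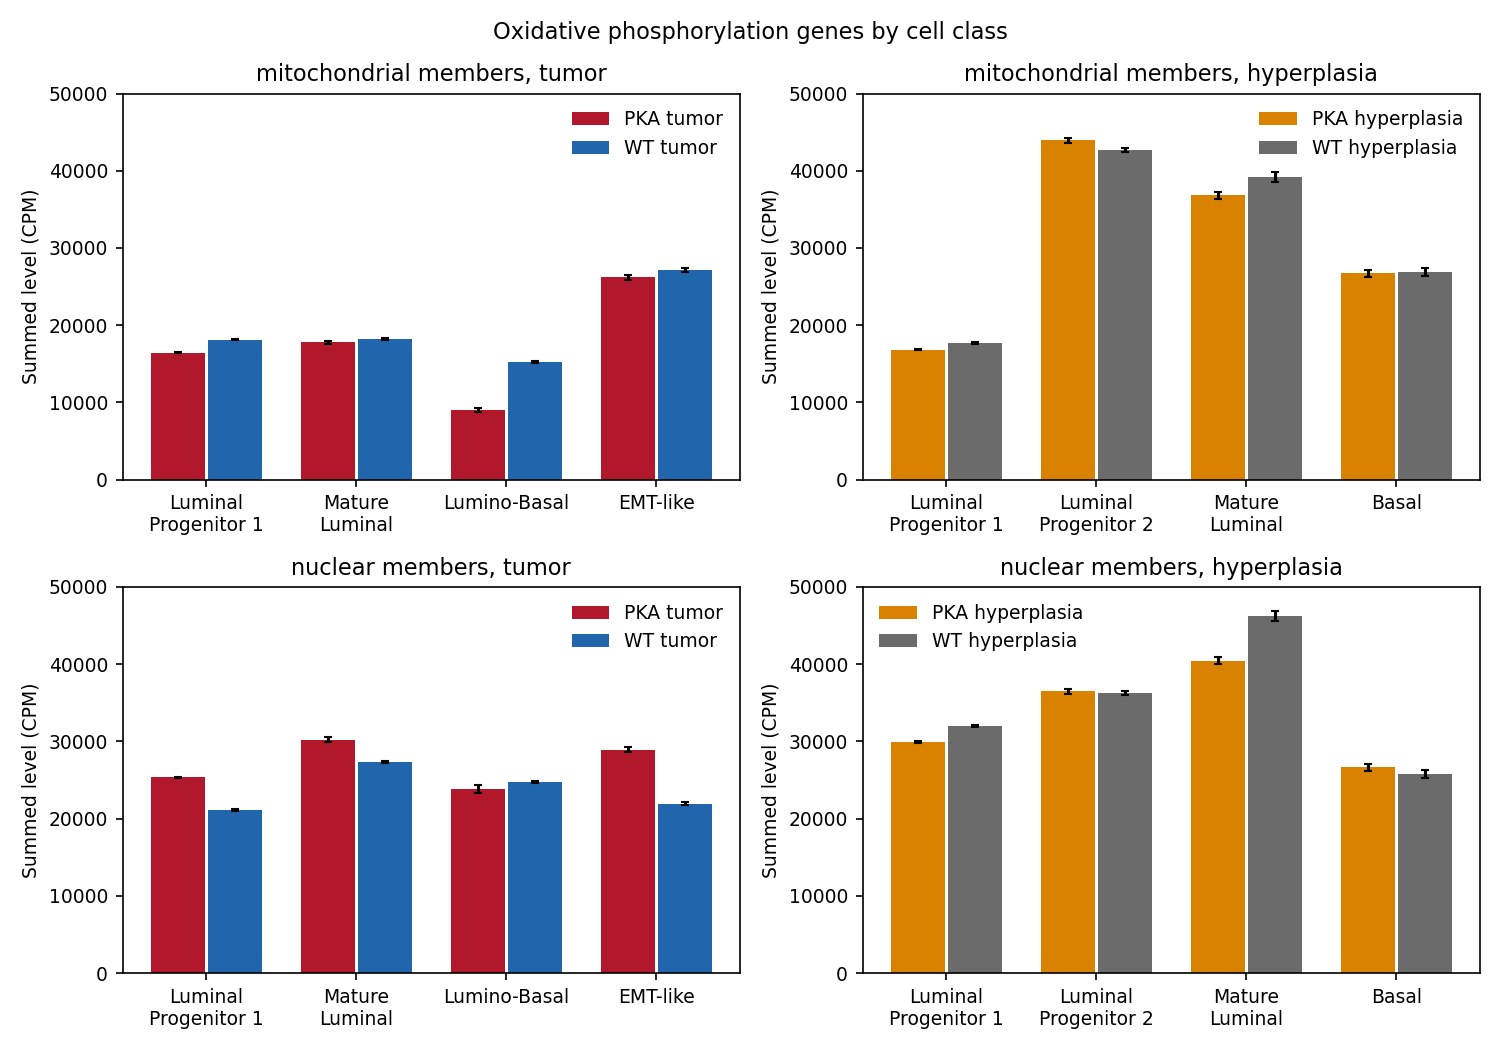
Summed level in CPM of the mitochondrial members (top) and nuclear members (bottom) by class annotated by the authors, in tumors (left) and hyperplastic glands (right), with 95% exact Poisson intervals as error bars. The mitochondrial sum runs from 9009 CPM in PKA Lumino-Basal tumor cells to 43919 CPM in PKA Luminal Progenitor 2 cells, and the pair of genotypes gives the same order of classes in glands.

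Nuclear members followed another order. Mature Luminal cells had the highest summed level in each library, with 30243 CPM in PKA tumor, 27345 CPM in WT tumor, 40432 CPM in PKA hyperplasia and 46238 CPM in WT hyperplasia. Basal cells were lowest in glands, at 26680 CPM in PKA hyperplasia and 25744 CPM in WT hyperplasia. The ratio of mitochondrial to nuclear members was 1.20 in Luminal Progenitor 2 and 0.563 in Luminal Progenitor 1 cells of PKA hyperplasia.

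PKA activation in hyperplastic glands was first compared over single genes. Of the 90 nuclear members, 85 had at least 50 UMIs in both libraries together, and the same 5 low genes fell short in each comparison: Cox8c, Cox7b2, Cox6a2, Cox4i2 and Ndufa4l2. The median log2 ratio of PKA over WT hyperplasia was -0.13 for nuclear members and 0.00 for all 11954 genes measured, with 63 of 85 members below 0. By class the median over members was -0.14 in Luminal Progenitor 1 and -0.23 in Mature Luminal cells, but 0.00 in Luminal Progenitor 2 and 0.04 in Basal cells. No member was 1.5-fold higher in PKA hyperplasia, where 5.39% of all genes were, and 3 were 1.5-fold lower, where 5.29% of all genes were. The mitochondrial sum had a log2 ratio of -0.11. By class that ratio was -0.07 in Luminal Progenitor 1, 0.04 in Luminal Progenitor 2, -0.09 in Mature Luminal and -0.01 in Basal cells.

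The 3 lower members were Uqcrfs1, Ndufaf6 and Cox5a. Uqcrfs1 (chromosome 13, 30540308 to 30545362 in GRCm38) encodes the Rieske iron-sulfur protein of complex III, which takes electrons from ubiquinol. It had 175 CPM in PKA hyperplasia and 340 CPM in WT hyperplasia, a log2 ratio of -0.96 (-1.04 to -0.88). In tumors it had 330 CPM with PKA activation and 517 CPM in WT, a log2 ratio of -0.65 (-0.69 to -0.60). Uqcrfs1 was lower in the PKA library at both stages and in each class compared, with log2 ratios of -0.96 in Luminal Progenitor 1, -0.83 in Luminal Progenitor 2, -0.82 in Mature Luminal and -0.76 in Basal cells of glands. In tumor classes the ratios were -0.51, -0.50, -0.85 and -0.48 in Luminal Progenitor 1, Mature Luminal, Lumino-Basal and EMT-like cells. Its 3′ end is not shared with another gene, and the other 7 nuclear complex III subunits had log2 ratios of -0.24 to 0.01 in glands.

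Ndufaf6 (chromosome 4, 11051045 to 11076205), an assembly factor of complex I, was at low level, with 16.2 CPM in PKA tumor, 33.7 CPM in WT tumor, 3.66 CPM in PKA hyperplasia and 11.6 CPM in WT hyperplasia. Its log2 ratio of PKA over WT was -1.06 (-1.26 to -0.86) in tumors and -1.65 (-2.22 to -1.13) in glands (39 UMIs in PKA and 125 in WT hyperplasia). Cox5a, a nuclear-encoded subunit of complex IV, had 50.5 CPM in PKA and 78.9 CPM in WT hyperplasia (-0.64), with ratios of -0.74, -0.53, -0.98 and 0.49 in Luminal Progenitor 1, Luminal Progenitor 2, Mature Luminal and Basal cells. In tumors it had 98.6 CPM in PKA and 112 CPM in WT (-0.19), but the ratio was above 0 in each of the 4 classes, at 0.06 to 0.44, so no direction is read from the tumor libraries. Cox5a shares 69.3% of its 3′ end with Gm26631, so its count is uncertain. Among members that were higher, Cox7a2l, which helps join complexes III and IV into supercomplexes, had 147 CPM in PKA and 109 CPM in WT hyperplasia (log2 ratio 0.43, 0.32 to 0.54), and 173 CPM in PKA and 178 CPM in WT tumor. Ndufa6, an accessory subunit of complex I, had 585 CPM in PKA and 475 CPM in WT hyperplasia (0.30).

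In tumors, nuclear members spread far more widely. The median log2 ratio of PKA over WT tumor was 0.12 for nuclear members and -0.05 for all 15107 genes measured. It was -0.12 for members whose 3′ ends share at most 10% with another gene, and -0.10 in Lumino-Basal cells, against 0.15 to 0.26 in the other 3 classes. In PKA tumor 24 members were 1.5-fold higher, where 13.8% of all genes were, and 6 were 1.5-fold lower, where 13% of all genes were. The summed nuclear level was 1.11-fold higher in PKA tumor.

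**Figure D3:**
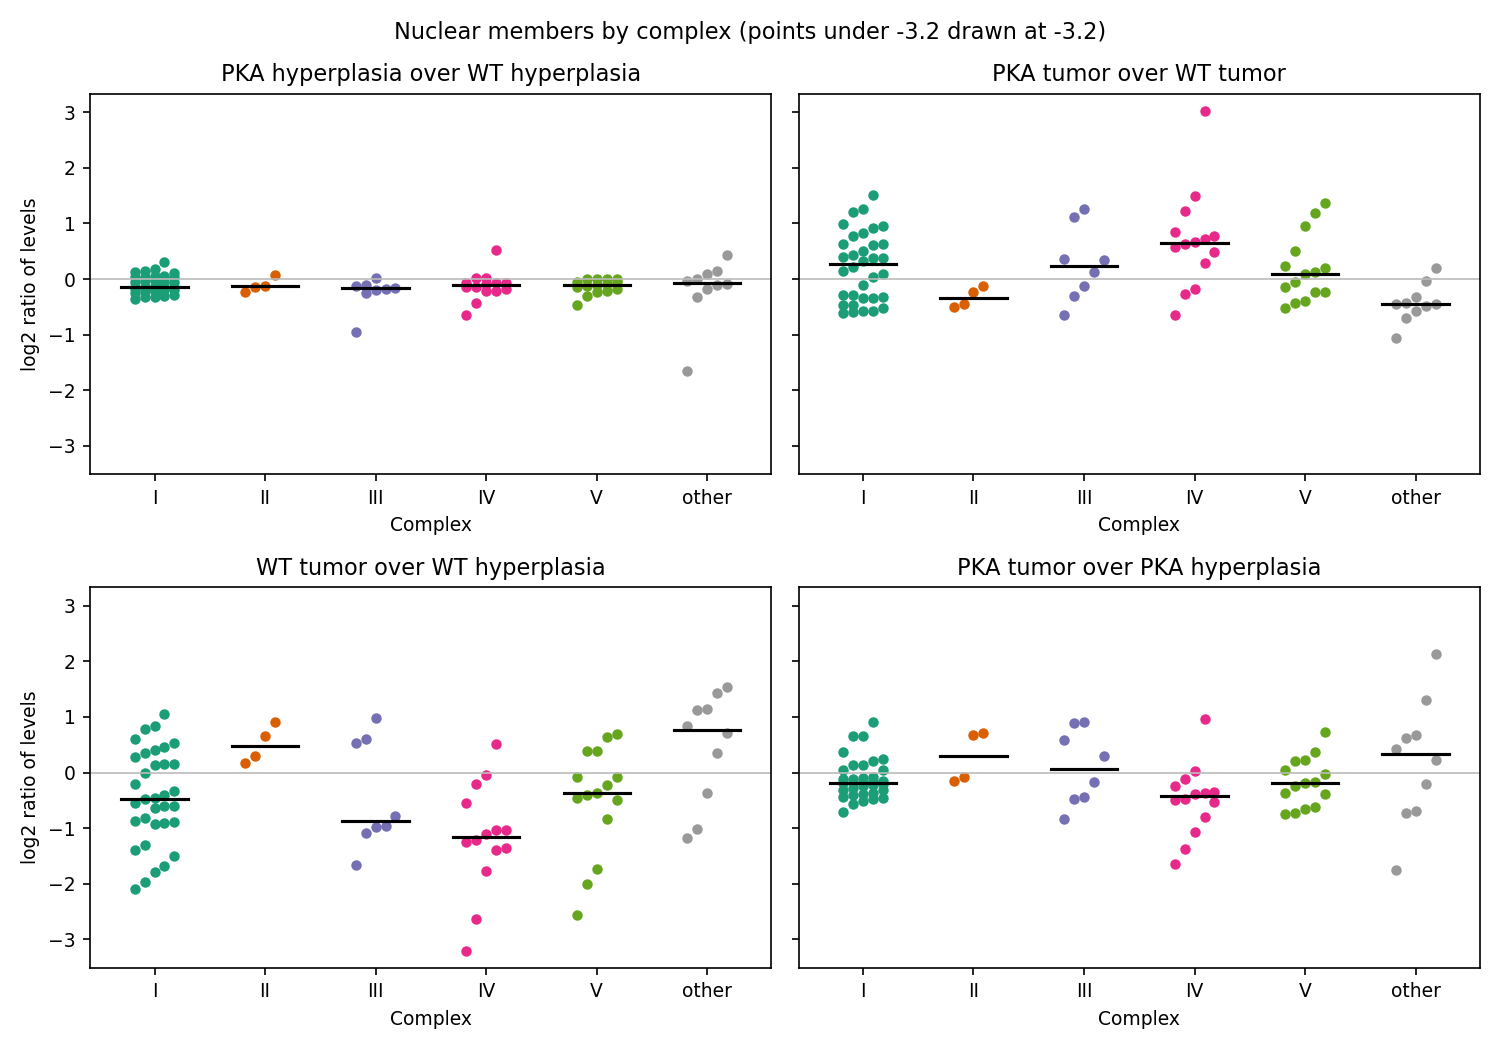
Log2 ratio of each nuclear member with at least 50 UMIs, by complex, in the 4 comparisons, with the median as a bar. Ratios lie close to 0 in the glands, and in tumors complex IV members lie mostly above 0 (median 0.64) and complex II members all below 0.

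The split ran between and within complexes. Complex IV members had a median log2 ratio of 0.64 for PKA over WT tumor, complex I 0.27, complex III 0.24 and complex V 0.10, whereas complex II had -0.34. All 4 complex II subunits, which also serve the TCA cycle, were lower in PKA tumor. In cells annotated EMT-like, however, Sdha, Sdhc and Sdhd had log2 ratios of 0.10 to 0.11, and only Sdhb was below 0 in each of the 4 classes. Sdhb, the iron-sulfur subunit, had 208 CPM in PKA tumor and 296 CPM in the WT tumor, and Sdhd, a membrane anchor, had 156 and 212 CPM. Sdha, the flavoprotein, was at 162 CPM in PKA tumor and 176 CPM in the WT tumor, and Sdhc, the other anchor, at 140 and 166 CPM.

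Within complex I, the 7 nuclear core subunits had a median log2 ratio of -0.47, and the 27 accessory subunits had one of 0.40. The core subunit Ndufv1, which binds NADH, had 114 CPM in PKA tumor and 174 CPM in the WT tumor (-0.61). In cells annotated EMT-like, however, Ndufv1 had a log2 ratio of -0.07, and the core subunits ranged from -0.49 (Ndufv2) to 0.22 (Ndufs1). The accessory subunit Ndufb4, with 9.96 CPM in PKA and 3.47 CPM in WT tumor (1.52), was at the other end. In complex III the small subunit Uqcr11 had 391 CPM in PKA tumor and 164 CPM in the WT tumor (1.25). In complex V the membrane subunit Atp5k had 88.3 CPM in PKA and 34.0 CPM in WT tumor (1.38), while the catalytic subunit Atp5b had 775 and 1116 CPM (-0.53). Atp5b had a log2 ratio of 0.05 in cells annotated EMT-like and -0.58 to -0.31 in the other classes.

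These groups differ in the length of their transcripts, and the ratios followed length. Transcript length was the median over the principal GENCODE M21 transcripts of each gene. Complex IV members had a median of 588.5 bases and complex II members 2065.5 bases. The complex I core had 1623 bases and its accessory subunits 763 bases. The 35 short nuclear members (under 700 bases, 32 of them measured) had a median log2 ratio of 0.55 for PKA over WT tumor, the 17 measured members in between had 0.12, and the 36 long ones (1000 bases or more) had -0.32. By class the median of short members was 0.50 to 0.75. That of long members was -0.01 in cells annotated EMT-like and -0.50 to -0.23 in the other classes. Of the short members 29 of 32 were above 0, and of the long ones 28 of 36 were below 0. Across the 85 members Spearman's rho between log2 ratio and transcript length was -0.58, and with coding length -0.74, as a description over genes of the same pair of libraries. Both length limits were chosen after the data had been seen.

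Other genes showed part of this. Genes outside the set and without ribosomal protein genes had medians of 0.22 under 700 bases, -0.22 in between and -0.13 at 1000 bases or more in the same comparison. Ribosomal protein genes had 0.76, 0.10 and -0.01. Over the 11447 genes outside the set and without ribosomal protein genes, Spearman's rho with transcript length was 0.18, opposite in sign to that of members. Among genes under 1000 bases rho was -0.29 for 703 such other genes and -0.44 for 49 members. Within a band of 700 to 2000 bases, the 6 complex I core subunits had a median of -0.52, with 5 below 0. Their summed level had a log2 ratio of -0.49. The 13 accessory subunits there had a median of 0.22, with 7 above and 6 below 0, and a summed ratio of 0.03. Lengths were not matched within the band, as 7 accessory and 2 core subunits were under 1000 bases. Short members whose 3′ ends share at most 10% with another gene had a median of 0.64 (20 genes), and those that share more had 0.46 (12 genes).

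**Figure D4:**
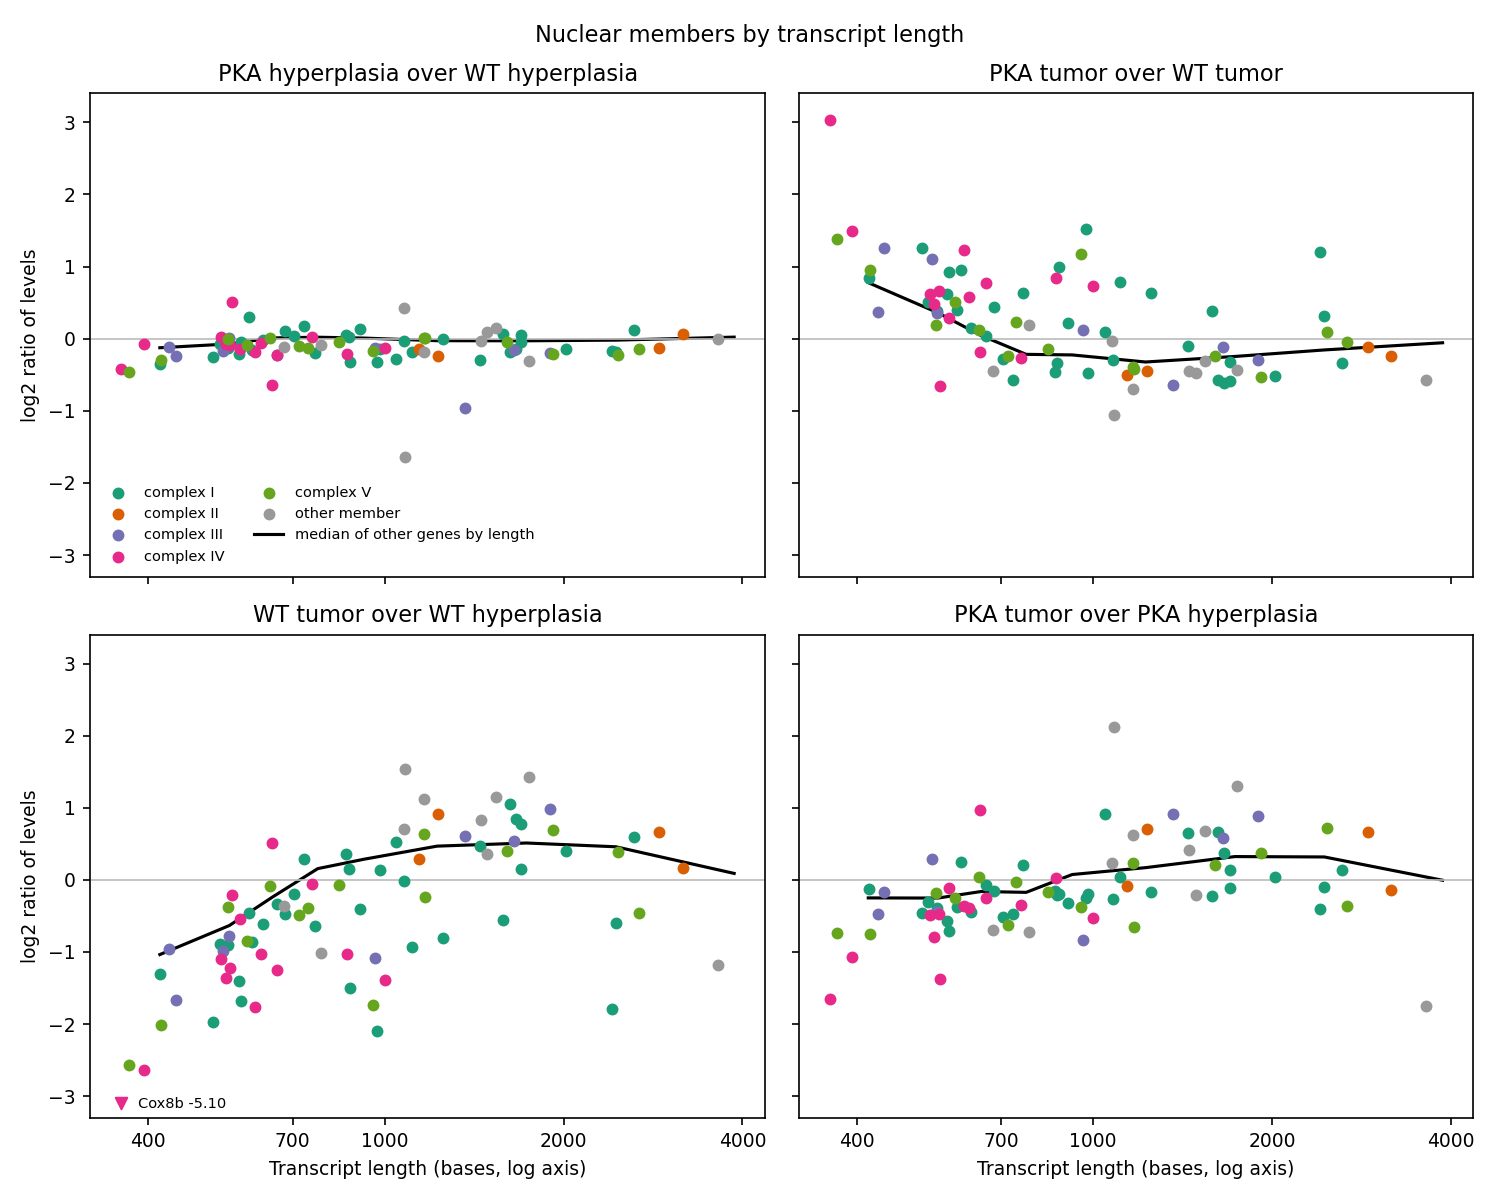
Log2 ratio of nuclear members against transcript length on a log axis, coloured by complex, in the 4 comparisons, with the median of other genes in length bins as a line. In PKA tumor over WT tumor the points run from above 0 for the shortest transcripts to below 0 for most long ones, in WT tumor over WT hyperplasia they run the other way, and in the glands they are flat.

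By library, short members together had 1.61 times the level of long members in PKA tumor and 0.937 times in WT tumor, against 2.10 times in PKA hyperplasia and 2.11 times in WT hyperplasia. The WT tumor library thus stands apart, and its difference was present in each of its classes. The ratio was 0.906 to 1.09 over the 4 classes of WT tumor, 1.59 to 1.73 over those of PKA tumor and 2.04 to 2.63 over those of both hyperplasias. Per cell, short members made up a median of 61.8% of the UMIs of short and long members in PKA tumor, 48.4% in WT tumor, 67.7% in PKA hyperplasia and 68.2% in WT hyperplasia. The ratio of short to long transcripts taken over genes outside the set was 0.104 in PKA tumor, 0.0574 in WT tumor, 0.127 in PKA hyperplasia and 0.121 in WT hyperplasia. By class, however, this ratio overlapped between the tumors, at 0.0642 to 0.109 in PKA and 0.0481 to 0.0737 in WT. In Luminal Progenitor 1 cells it was 0.109 in PKA and 0.0507 in WT tumor, but in Lumino-Basal cells 0.0660 and 0.0688. As each group is 1 library, properties of the library and of the genotype cannot be told apart here.

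**Figure D5:**
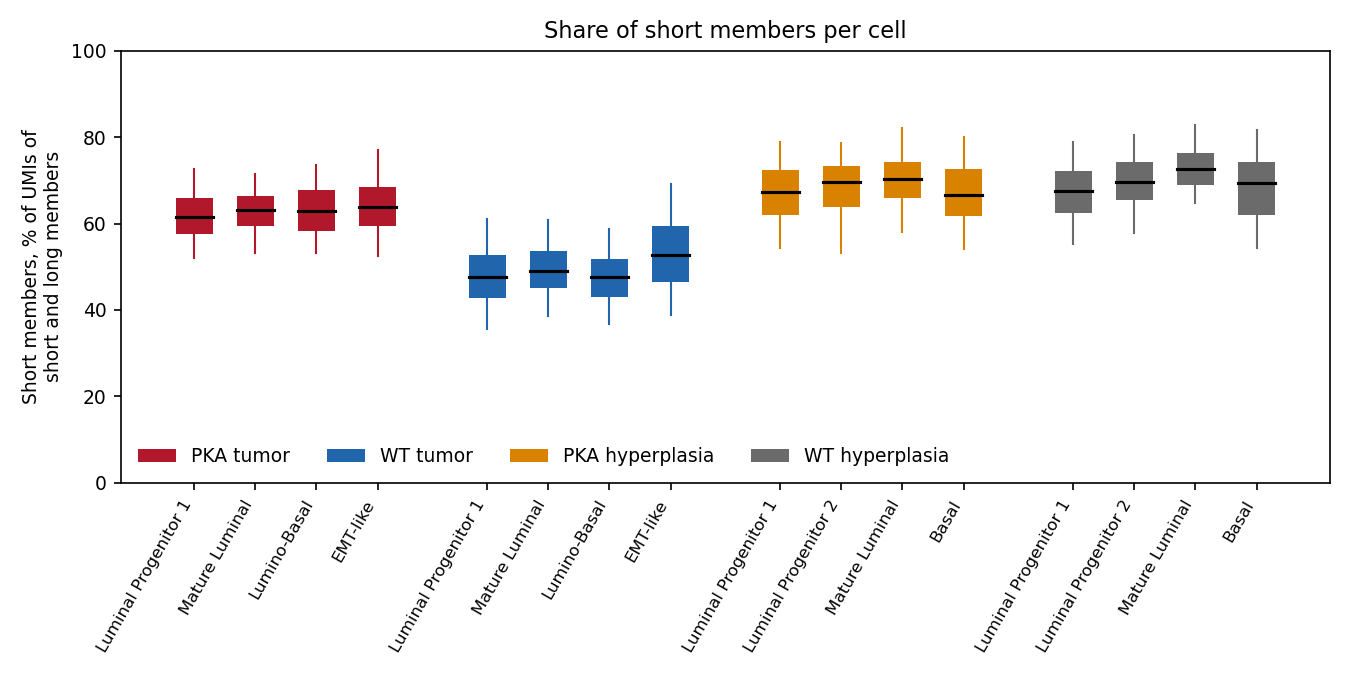
Percent of UMIs from short members among those from short and long members per cell, by class and library, for cells with at least 20 such UMIs. Boxes span the quartiles, black bars are medians and thin lines reach the 5th and 95th percentiles, and all 4 WT tumor classes have medians from 47.6 to 52.8%, below those of every class of the other libraries.

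Tumors were next compared with hyperplastic glands. For WT, the median log2 ratio of tumor over hyperplasia was -0.41 for nuclear members and 0.31 for all 14337 genes measured. In WT tumor 16 members were 1.5-fold higher, where 38.7% of all genes were, and 36 were 1.5-fold lower, where 16.6% of all genes were (55.3% either way). The WT tumor library is also in the previous comparison. For PKA, the median was -0.18 for members and 0.21 for all 13680 genes. In PKA tumor 13 members were 1.5-fold higher and 13 lower, where 34.1% and 17.8% of all genes were (51.9% either way). With TMM scaling the median of all genes was 0.10 in place of 0.31 in the WT comparison and 0.01 in place of 0.21 in the PKA comparison.

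Length again ordered the members. For WT tumor over WT hyperplasia the medians were -0.97 for short members, -0.41 for those in between and 0.50 for long ones, and for PKA tumor over PKA hyperplasia, in which the WT tumor library takes no part, they were -0.39, -0.25 and 0.22. Other genes of the same lengths had -0.41, 0.23 and 0.28 in the WT comparison and -0.19, -0.04 and 0.14 in the PKA comparison. All 7 complex I core subunits and all 4 complex II subunits were higher in WT tumor, except that Ndufs7, Ndufs8 and Sdhc were below 0 with TMM scaling. Sdhd, for example, had 212 CPM in WT tumor and 113 CPM in WT hyperplasia (log2 ratio 0.91). At the other end Atp5k had 34.0 CPM in WT tumor and 201 CPM in WT hyperplasia (-2.57), and 88.3 CPM in PKA tumor and 147 CPM in PKA hyperplasia (-0.73).

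Assembly factors of complex I differed among themselves. Ndufaf6 was higher in tumors for both genotypes, with log2 ratios of 2.13 for PKA and 1.54 for WT, whereas Ndufaf4, another complex I assembly factor, had 27.1 CPM in PKA tumor and 40.2 CPM in the WT tumor, against 90.9 CPM in either hyperplasia. In Luminal Progenitor 1 cells Ndufaf4 had log2 ratios of tumor over hyperplasia of -1.93 for PKA and -1.44 for WT, and in Mature Luminal cells -0.27 and 0.42.

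Tissue-specific isoforms of complex IV were read from few UMIs. Cox8b (chromosome 7, 140898945 to 140900446) is the heart, muscle and brown fat isoform of subunit 8, and Cox8a is its general counterpart. Cox8b had 3.46 CPM in PKA tumor, 0.408 CPM in WT tumor, 10.9 CPM in PKA hyperplasia and 14.6 CPM in WT hyperplasia (58, 10, 116 and 158 UMIs). In glands it was highest in Luminal Progenitor 2 cells, with 45.3 CPM in PKA and 55.1 CPM in WT hyperplasia, against 6.21 and 4.71 CPM in Luminal Progenitor 1 cells. Cox7a1, the muscle isoform of subunit 7a, had 45.3 CPM in PKA and 45.9 CPM in WT Luminal Progenitor 2 cells, and 26.0 and 25.5 CPM in Luminal Progenitor 1 cells. Skeletal muscle markers summed to 4.04 to 7.52 CPM and the brown adipocyte markers Ucp1 and Cidea to 6.44 to 20.1 CPM over the libraries. Nearly all of the second sum was Cidea, as Ucp1 had 4 UMIs in each tumor and 1 in each hyperplasia. In glands that sum was 10.6 CPM in PKA and 3.71 CPM in WT Luminal Progenitor 2 cells, against 24.5 and 15.8 CPM in Luminal Progenitor 1 cells. The part of muscle or brown fat cells in these values was not tested.

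Other isoforms had their highest level in other classes. Cox6b2, known from testis, was highest in Mature Luminal cells of each library, from few UMIs. In glands these cells held 28 UMIs (36.8 CPM) with PKA activation and 16 UMIs (41.7 CPM) in WT. In tumors they held 14 UMIs (9.77 CPM) and 51 UMIs (10.4 CPM) in that order. The gene was not confined to them, as PKA Basal cells of glands held 10 UMIs (19.5 CPM). WT Basal cells held 3 UMIs (7.46 CPM) of Cox6b2. Luminal Progenitor 1 cells had 1.05 to 2.11 CPM of it in the 4 libraries. Ndufa4l2, a hypoxia-induced relative of Ndufa4, and Cox4i2, the hypoxia-induced form of subunit 4, were at their highest level in Basal cells of glands. Ndufa4l2 had 10 UMIs (19.5 CPM) in PKA and 11 UMIs (27.4 CPM) in WT Basal cells. Cox4i2 had 6 UMIs (11.7 CPM) in PKA and 3 UMIs (7.46 CPM) in WT Basal cells, and 0.869 and 0.127 CPM in Luminal Progenitor 1 cells. The numbers are too small to order the genotypes. The WT Basal class also held 1639 CPM of fibroblast and 328 CPM of macrophage markers, and the PKA Basal class 807 and 1.95 CPM, and their part in these values was not tested. The general form Cox4i1 had 1821 CPM in PKA tumor, 2188 CPM in WT tumor, 2308 CPM in PKA hyperplasia and 2268 CPM in WT hyperplasia. Of the Atp5g genes for subunit c of ATP synthase, Atp5g3 had 339 CPM in PKA tumor, 400 CPM in WT tumor, 522 CPM in PKA hyperplasia and 561 CPM in WT hyperplasia, while Atp5g1 had 7.76 to 11.0 CPM and Atp5g2, with 98.4% of its 3′ end shared, 1.35 to 2.41 CPM.

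Genes around the respiratory chain were counted from 6 lists. The 17 TCA cycle genes, all of 1000 bases or more, had a median log2 ratio of -0.39 for PKA over WT tumor. Past 1.5-fold, 0 were higher and 1 (5.88%) lower, where 13.8% and 13% of all genes were. For WT tumor over WT hyperplasia the median was 0.40, and 0.20 with TMM scaling. There 6 genes (35.3%) were higher, near the 38.7% of all genes, and 0 lower, where 16.6% of all genes were. Mdh2, malate dehydrogenase, had 310 CPM in PKA tumor, 485 CPM in WT tumor and 283 CPM in WT hyperplasia. The carrier and membrane list had medians of -0.45 for PKA over WT tumor and 0.08 for WT tumor over WT hyperplasia (13 genes), the second being -0.12 with TMM scaling. It was led in tumors by the ADP/ATP carrier Slc25a5 with 319 CPM in PKA tumor and 578 CPM in the WT tumor. In glands, PKA over WT medians of the lists were -0.17 for the TCA cycle, -0.11 for carriers, -0.14 for mitochondrial translation, -0.08 for regulators, -0.03 for electron carriers and -0.01 for assembly factors.

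Among 32 assembly factors outside the rule, 30 were measured. Past 1.5-fold, 3 (10%) were higher and 5 (16.7%) lower in PKA tumor than in WT tumor, near the 13.8% and 13% of all genes. The median log2 ratio of the 30 factors was -0.32, with 22 below 0, against a median of -0.05 for all genes. Sdhaf1, which guards the iron-sulfur subunit of complex II, was lower with PKA activation at both stages, at 23.0 CPM in PKA tumor and 53.2 CPM in the WT tumor. In glands it had 4.32 CPM in PKA and 8.15 CPM in WT hyperplasia. Of 17 measured regulators of mitochondrial gene expression, 2 (11.8%) were higher and 1 (5.88%) lower past the fold in PKA tumor than in WT tumor. The median log2 ratio of these regulators was -0.20, with 13 below 0. Ppargc1a, the PGC-1alpha coactivator, had 4.89 CPM in PKA tumor, 2.08 CPM in WT tumor, 1.13 CPM in PKA hyperplasia and 1.11 CPM in WT hyperplasia. These levels came from 82, 51, 12 and 12 UMIs, and the gland pair fell under the minimum of 50 UMIs for a ratio. Esrra, an estrogen-related receptor, was higher in tumors, at 33.2 CPM in PKA tumor and 41.4 CPM in the WT tumor, against 9.39 CPM in PKA and 8.15 CPM in WT hyperplasia. Tfam, the mitochondrial DNA packaging factor, had 42.4 CPM in PKA tumor, 50.4 CPM in WT tumor, 35.1 CPM in PKA hyperplasia and 41.9 CPM in WT hyperplasia.

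Mitochondrial translation genes had 3 of 17 (17.6%) past the fold higher and 5 (29.4%) lower in PKA tumor than in WT tumor. Their median log2 ratio was -0.29, with 11 below 0. Of all genes, 13.8% were higher and 13% lower past the fold. Mrps21, of the small mitochondrial ribosomal subunit, had 189 CPM in PKA tumor and 87.2 CPM in the WT tumor, and Mrps7, of the same subunit, had 99.9 and 187 CPM. Of 10 electron carriers and subunits outside the rule, 1 was higher and 2 lower past the fold, too few to set beside those shares. Their median log2 ratio was -0.07, with 6 below 0. Ndufc1, an accessory subunit of complex I, had 166 CPM in PKA and 86.0 CPM in WT tumor, and Cyc1, the cytochrome c1 subunit of complex III, had 185 and 321 CPM.

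Between stages, list counts are set beside the 38.7% of all genes higher and 16.6% lower in WT tumor over WT hyperplasia. Of 30 assembly factors 13 (43.3%) were higher and 4 (13.3%) lower, near those shares, and of 17 regulators 8 (47.1%) were higher and 4 (23.5%) lower. Of 13 carriers 3 were higher and 1 lower, of 17 translation genes 1 was higher and 3 lower, and of 10 electron carriers and subunits 2 were higher and 3 lower. In PKA tumor over PKA hyperplasia, where 34.1% of all genes were higher and 17.8% lower, the counts higher and lower were 5 and 3 of 30 assembly factors, 5 and 3 of 17 regulators, 3 and 1 of 17 TCA cycle genes, 0 and 1 of 12 carriers, 2 and 5 of 17 translation genes, and 2 and 1 of 10 electron carriers and subunits. In the glands, PKA over WT put 1 of 16 regulators (6.25%) past the fold higher, where 5.39% of all genes were. Lower were 1 of 30 assembly factors (Sdhaf1, 3.33%) and 1 of 16 translation genes (Mrps24, 6.25%), where 5.29% of all genes were. Mrps24, a mitochondrial ribosomal protein, had 220 CPM in PKA tumor, 372 CPM in WT tumor, 81.0 CPM in PKA hyperplasia and 252 CPM in WT hyperplasia.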

How the data were processed

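Single-cell 3′ libraries (10x Chromium v2) of 4 groups were used, 1 per group. Per the submitters' processing notes, reads were processed with Cell Ranger, STAR 2.5.3a, featureCounts and Subread 1.6.0 on GRCm38 (mm10). The sources used here do not give the annotation release or the treatment of reads matching several places. The deposited gene matrices hold UMI counts, not normalized, and the deposited cell tables hold the authors' classes and a fraction of mitochondrial reads per cell.

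UMIs were summed over cells with a class and divided by the library total (CPM). Log2 ratios used counts plus 0.5, for genes whose UMIs in the compared pair of libraries summed to 50 or more, with exact 95% conditional binomial intervals, and levels had exact Poisson intervals. A 1.5-fold difference was called past the fold. No test across samples was possible, and p-values are not given. The calculation was checked on simulated data. No doublet caller was run, and barcodes shared between libraries were kept (16 to 24 per pair, at most 0.758% of a library).

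The members and lists were chosen with earlier results of these data known. Named were the mitochondrial members, the highest and lowest member of each complex in each comparison among those with at least 100 UMIs, complex II, isoform groups and genes of the lists. Values of 1 gene that this rule names are not reported here. Transcript lengths, 3′ ends and shared runs of 50 bases in the last 300 bases came from GENCODE M21, and promoters from RefSeq. Length limits and motifs were chosen after seeing the data. Alternatives were TMM factors (edgeR 4.0.16, R 4.3.3), other totals, cell filters, weights and classes. Figures were drawn with matplotlib 3.10.9, and values computed with pandas 2.3.3, SciPy 1.17.1 and NumPy 2.4.6 in Python 3.11.15.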

Additional observations from a re-analysis of the deposited data

Results flagged for a closer look

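PKA over WT had opposite signs in tumors and in hyperplastic glands for several summed levels. The difference between the log2 ratio in tumors and that in glands was 0.23 for all nuclear members, 0.67 for short members, 0.16 for complex I, 0.27 for its accessory subunits, 0.41 for complex III and 0.44 for complex IV. With 1 library per group, this difference was not tested.

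Barcodes to which the authors gave no class are used in no comparison above. Mitochondrial members took 6.77% of their UMIs in PKA tumor, 5.05% in WT tumor, 5.59% in PKA hyperplasia and 7.19% in WT hyperplasia, against 1.70%, 1.83%, 2.21% and 2.38% in cells with a class. These 296, 619, 1040 and 1371 barcodes had medians of 786.5, 740, 486.5 and 411 UMIs.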

How the results depend on the processing

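The median log2 ratio of nuclear members depended on transcript length. With members of at least 1000 bases it was -0.32 for PKA over WT tumor, 0.50 for WT tumor over WT hyperplasia and 0.22 for PKA tumor over PKA hyperplasia, and with members under 700 bases it was 0.55, -0.97 and -0.39. With 3′ ends at most 10% shared, it was -0.12 for PKA over WT tumor. With TMM factors it was -0.37 for PKA tumor over PKA hyperplasia. With a minimum of 1 UMI, 5 members in place of 3 were past the fold in glands. These length and sharing choices, and the 5% limit, were made after seeing the data.

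The mitochondrial sum depended on which cells were taken. For PKA over WT hyperplasia its log2 ratio was -0.072 in Luminal Progenitor 1 cells, -0.12 with TMM factors, -0.17 over all barcodes, -0.10 with limits of 500 genes and 10% mitochondrial UMIs per cell, -0.10 at no more than 5%, -0.025 with classes weighted equally, -0.13 as a mean over cells and -0.12 with totals that leave out milk, ribosomal protein and mitochondrial genes. For PKA over WT tumor it was 0.046 as a mean over cells, and -0.14 in Luminal Progenitor 1 cells, -0.12 and -0.15 with the 10% and 5% limits, -0.18 with equal classes and -0.088 with the reduced totals. For WT tumor over WT hyperplasia it was 0.035 in Luminal Progenitor 1 cells, -0.59 with TMM factors, -0.55 over all barcodes, -0.29 and -0.17 with those limits, -0.65 with equal classes, -0.43 over cells and -0.45 with reduced totals. For PKA tumor over PKA hyperplasia the same settings gave -0.033, -0.57, -0.48, -0.32, -0.22, -0.65, -0.25 and -0.42. The cause was not tested.

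Of 336 values for single named members, 69 moved beyond counting error and 3 were counted as reversed. The 3 were Cox6b2 in PKA over WT tumor (0.44) and Cox5a in WT tumor over WT hyperplasia (-0.081), both in Luminal Progenitor 1 cells, and Sdhc in WT tumor over WT hyperplasia with TMM factors (-0.036). Other named members with ratios near 0 also changed sign and are not among these 3. In PKA over WT hyperplasia, Cox4i1 went from 0.025 to -0.011 in Luminal Progenitor 1 cells. Atp5c1 went from 0.008 to -0.089 in the same cells, and Uqcrh, at 0.011, fell below 0 with TMM factors. No paired analysis was possible because each group has 1 library. Intervals cover counting error only, and genes read from few UMIs are the least certain.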
